A study of Mus musculus with 2 samples.

Results

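Ulipristal acetate is a synthetic progesterone receptor ligand, and the arrays described here compared whole ovaries of ovulating mice with and without it. The 8 genes followed here, Fshr, Foxl2, Gata4, Gata6, Wt1, Grb14, Kitl and Greb1, are known from granulosa cells, the somatic cells that surround the oocyte, as identity factors or as part of the response to follicle-stimulating hormone (FSH). They were found as every probe set whose platform annotation names exactly 1 gene with 1 of these symbols. This gave 19 of the 34945 probe sets that name 1 gene, for 8 of 18193 genes.

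All mice were immature wild type CD-1 animals aged 24 to 28 days. They received 5 IU of PMSG, a gonadotropin that grows a cohort of follicles, and 48 h later 5 IU of hCG, which starts ovulation. The vehicle group had oil 2 h after hCG, and the ulipristal group, which the title labels Ulipristal/CDB, had ulipristal acetate at the same point. Ovaries were collected at 11 h, without a label that says from which injection this was counted. Each group was 1 RNA sample on 1 Affymetrix Mouse Genome 430 2.0 array, and the labels give no number of mice per sample. No spread between animals could be estimated, so neither a test nor an error accompanies the values, which compare these 2 arrays and not the treatments in general. Signals are in arbitrary units and were scaled, with a mean after trimming 2% at each end of 150.001 on both arrays. In whole ovary RNA, fewer cells of a type and less RNA per cell cannot be told apart.

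FSH acts on a G protein-coupled receptor, FSHR, found in the ovary on granulosa cells, and raises cyclic AMP, which drives growth of the follicle and estradiol synthesis. FOXL2, the GATA factors and WT1 are transcription factors of the somatic gonad, and FOXL2 keeps granulosa cells from taking on a testis-like state. After the surge of luteinizing hormone, granulosa cells turn from the FSH-dependent state towards that of the corpus luteum.

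Promoter sequences are shown for Fshr and Foxl2, with higher signals after ulipristal, and for Kitl, with lower ones. Each is the 250 bases before the annotated start in RefSeq (GRCm38.p6), written 5′ to 3′ on the strand of the gene, with matches to the motifs named afterwards in capitals. The Fshr promoter lies at chr17:89200676-89200925 on the minus strand, the Foxl2 promoter at chr9:98955357-98955606 on the plus strand and the Kitl promoter at chr10:100015571-100015820 on the plus strand.
Fshr: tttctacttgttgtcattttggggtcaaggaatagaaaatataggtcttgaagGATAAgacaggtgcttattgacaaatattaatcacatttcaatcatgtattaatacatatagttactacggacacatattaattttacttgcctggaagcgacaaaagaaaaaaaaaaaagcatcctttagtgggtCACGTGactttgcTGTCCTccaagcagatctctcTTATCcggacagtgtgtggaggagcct
Foxl2: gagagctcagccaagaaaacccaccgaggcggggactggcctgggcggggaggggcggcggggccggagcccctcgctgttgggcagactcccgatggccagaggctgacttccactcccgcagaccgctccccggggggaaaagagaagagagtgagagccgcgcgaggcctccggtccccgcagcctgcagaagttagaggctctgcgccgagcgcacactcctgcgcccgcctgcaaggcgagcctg
Kitl: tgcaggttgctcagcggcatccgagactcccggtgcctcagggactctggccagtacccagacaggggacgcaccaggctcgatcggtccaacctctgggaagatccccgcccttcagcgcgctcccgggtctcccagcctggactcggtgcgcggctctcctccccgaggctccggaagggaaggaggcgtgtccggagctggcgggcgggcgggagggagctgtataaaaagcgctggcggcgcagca

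These motifs were searched for on both strands, and no matches overlapped. The E-box CACGTG, which the factor USF is known to bind in rodent Fshr promoters, occurred 1 time in the Fshr window, 61 bases before the start, and in 6.02% of 32851 promoter windows of this length. The GATA motif GATAA occurred 2 times in the Fshr window, with its first base 197 bases and, as the reverse complement, 27 bases before the start, and in 22.6% of all windows. The steroid receptor motif TGTNCT, which progesterone and glucocorticoid receptors can bind, occurred 1 time in the Fshr window and in 44.7% of all windows. The cyclic AMP motif TGACG (17.8% of all windows), the SF-1 type motif AAGGTCA (4.08%), the EGR and WT1 motif GCGNGGGCG (4.70%) and the palindromic estrogen response element, GGTCA and TGACC with 3 bases between them (0.06%), had no match in the Fshr window. None of the 7 motifs had a match in the Foxl2 or Kitl window. The Fshr window was AT-rich, with 36.8% G and C, against 70.8% for Foxl2 and 69.2% for Kitl. The matches describe letters in these windows and were not tied to the signals. Of the 8 genes, 5 had a promoter entry, and Gata4, Gata6 and Wt1 had none. Grb14 and Greb1, whose sequences are not shown, also had matches, likewise not tied to the signals. The Grb14 window held the EGR and WT1 motif 1 time, as the reverse complement, 63 bases before the start. Of the 2 Greb1 windows, 1 held TGTNCT 1 time, 213 bases before its start, and the other had no match.

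Gene by gene, 7 of the 8 genes had a higher signal on the ulipristal array and 1, Kitl, a lower one, as they also did after median centring, quantile normalization and lowess centring. A gene was represented by its brightest probe set and counted as measured where the mean of both log2 signals was at or above the median of the array, a signal of 30.8, which all 8 genes were. Gata4 and Fshr were at least 2-fold higher, and no gene was at least 2-fold lower. The background was 3.34% of the 11364 measured genes past 2-fold in the higher direction and 1.56% in the lower, while 60% had a log2 ratio of ulipristal over vehicle above 0. The genes past 2-fold numbered 380 higher and 177 lower, against 267 and 199 after quantile normalization and 261 and 203 after lowess centring. The median log2 ratio of the 8 genes was 0.33, and that of all measured genes was 0.09. Because the genes were chosen with earlier results of these arrays known, these counts describe the genes and test nothing.

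**Figure D1:**
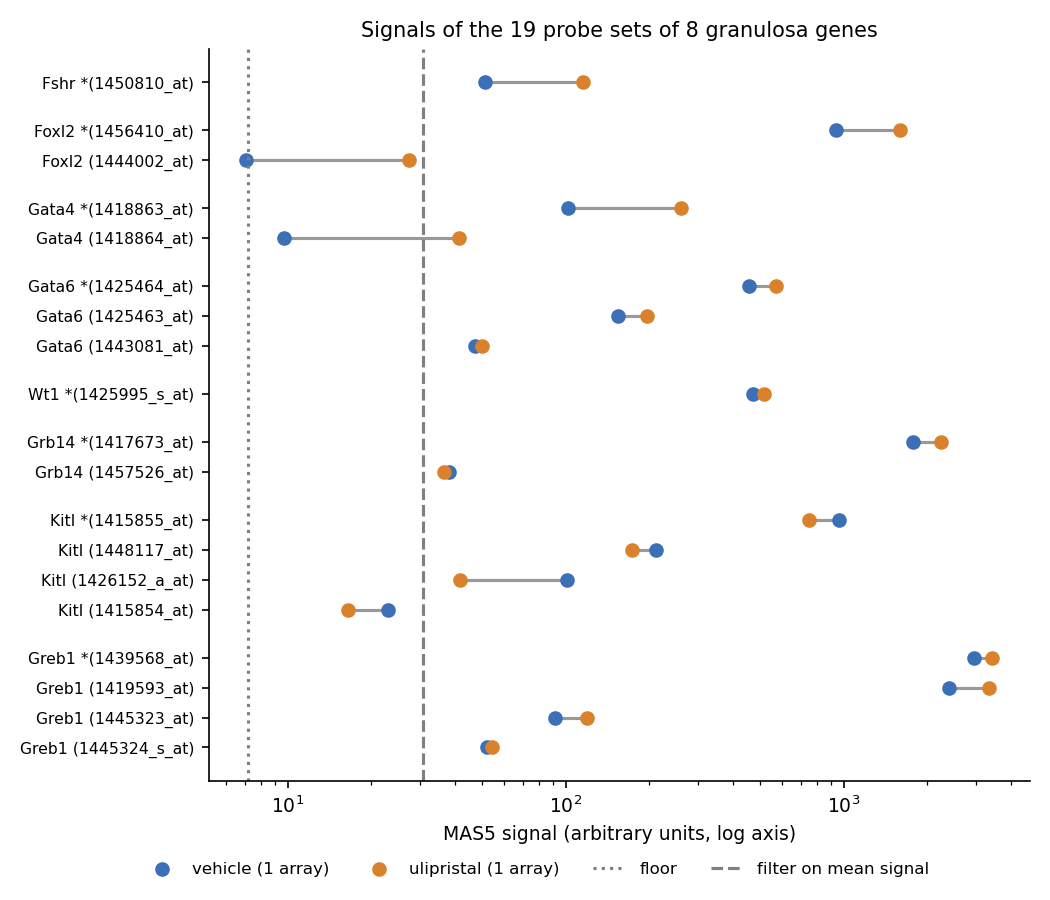
MAS5 signal on a log axis for each of the 19 probe sets on the vehicle array (blue) and the ulipristal array (orange), with 1 array each. An asterisk marks the probe set that represents a gene, the dotted line the floor of 7.17 and the dashed line the filter of 30.8, which is applied to the geometric mean of both signals. The orange point lies to the right for 14 probe sets and to the left for 5, among them all 4 of Kitl.

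Fshr, the FSH receptor, had 1 probe set, which read 51.1 with vehicle and 115.8 with ulipristal. This was a 2.26-fold higher signal, at a dim level where ratios spread widely. The measured genes were divided by mean signal into 4 bins of 2841 genes. In the dimmest bin, from 30.8 to 98.8, 9.61% passed 2-fold in the higher direction, and 158 genes had a higher ratio than Fshr. With 50 added to every signal, the log2 ratio of Fshr went from 1.18 to 0.71, less than 2-fold.

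Foxl2, the forkhead factor of granulosa identity, was bright on its main probe set, with 940 after vehicle and 1597 after ulipristal, a 1.70-fold difference that did not reach 2-fold. In the brightest bin, which starts at 505, 0.63% passed 2-fold in this direction, around a median log2 ratio of -0.07. Foxl2 stood high in that bin, where 40 of 2841 genes, 1.41%, had a higher ratio. Its second probe set read 7.08 with vehicle, below the floor of 7.17, and 27.4 with ulipristal, too dim to count as measured. Both Foxl2 probe sets were higher after ulipristal. Of 2982 genes with 2 measured probe sets, a class that leaves out Foxl2 with its 1, 38.3% had both above 0. The ratio of the dim one depended on the processing, at 3.82-fold with the floor. With 50 added to every signal its log2 ratio was 0.44.

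Gata4, a zinc finger factor that binds GATA motifs in gonadal somatic cells, had the highest ratio of the 8 genes. Its measured probe set read 101.5 with vehicle and 259 with ulipristal, a log2 ratio of 1.35 or 2.55-fold. In its signal bin, from 98.8 to 225.3, 2.53% of genes passed 2-fold in this direction, and 16 of 2841 had a higher ratio. The other Gata4 probe set, too dim to count as measured, read 9.66 and 41.1, 4.26-fold higher. Both were higher after ulipristal. The share of 38.3% for genes with 2 measured probe sets does not cover Gata4, which had 1 measured. With 50 added to every signal, the measured Gata4 probe set kept a log2 ratio of 1.03.

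Gata6, the related factor with which GATA4 shares targets in granulosa cells, differed less. Its brightest probe set read 457 with vehicle and 571 with ulipristal, which is 1.25-fold higher. The other probe sets read 154 and 196, and 47.1 and 49.8. All 3 were measured and higher after ulipristal, with log2 ratios of 0.32, 0.35 and 0.08. Of 1223 genes with 3 measured probe sets, 22.6% had all of them above 0. Gata4 and Gata6 were thus 2.55-fold and 1.25-fold higher on their brightest probe sets, and the difference between these ratios could not be tested.

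Wt1, a zinc finger factor of granulosa, surface epithelial and other gonadal cells, read 470 with vehicle and 516 with ulipristal. This 1.10-fold difference was close to the median of all measured genes, since 45.4% of them had a higher ratio. It rested on 1 probe set whose identifier marks that it can bind several transcripts.

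Grb14, an adaptor that binds and inhibits the activated insulin receptor, read 1779 with vehicle and 2247 with ulipristal on its bright probe set, a 1.26-fold difference. Its dim probe set read 38.1 and 36.4, with a log2 ratio of -0.06. Both were measured, and they did not share a direction. In the brightest bin, 9.33% had a higher ratio than Grb14.

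Greb1, a gene known for its induction by estrogen and as a cofactor of the estrogen receptor, read 2934 with vehicle and 3431 with ulipristal on its brightest probe set and 2385 and 3336 on the next. These were 1.17-fold and 1.40-fold higher. The remaining probe sets read 91.3 and 119, and 52.0 and 54.3. All 4 were higher after ulipristal, with log2 ratios from 0.06 to 0.48, and none reached 2-fold. Of 474 genes with 4 measured probe sets, 12.7% had all of them above 0.

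Kitl, the ligand that granulosa cells present to the KIT receptor on oocytes and theca cells, went the other way. Its brightest probe set read 961 with vehicle and 749 with ulipristal, 1.28-fold lower. A second read 211 and 173, 1.22-fold lower, and the dimmest, not counted as measured, read 22.9 and 16.4. The remaining probe set, whose identifier ends in a_at, stood apart, with 101.3 and 41.6, a log2 ratio of -1.28 or 2.43-fold lower. All 4 were lower after ulipristal, but 1 of the 3 measured probe sets passed 2-fold, and the other 3 of the 4 lay between 1.22-fold and 1.39-fold lower. Of genes with 3 measured probe sets, 19.1% had all of them below 0. In the brightest bin, 397 of 2841 genes had a lower ratio than the brightest Kitl probe set.

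**Figure D2:**
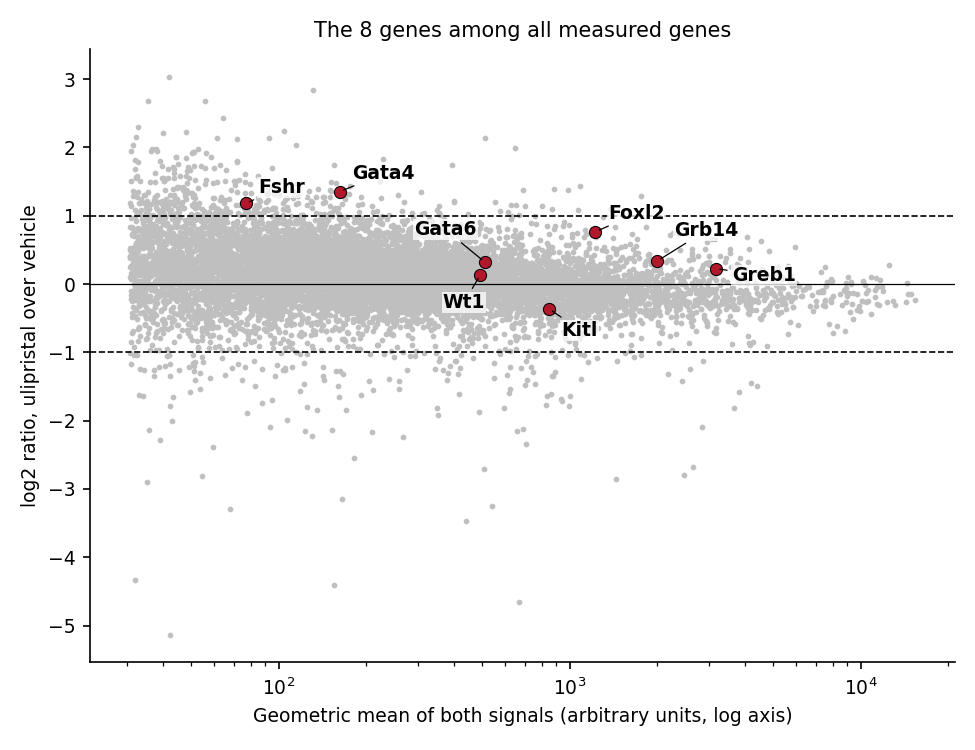
Each point is 1 of 11364 measured genes, with the geometric mean of its signals on both arrays on the log x axis and the log2 ratio of ulipristal over vehicle on the y axis, and dashed lines at 2-fold. Gata4 and Fshr lie above the upper line in the dimmer, wider part of the cloud, Foxl2 lies near the upper edge of the narrow bright part at 0.76, and Kitl lies below 0.

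Among probe sets, 16 of the 19 were measured. Of these, 12 had a log2 ratio above 0, against 57.5% of the 19467 measured probe sets that name 1 gene. At least 2-fold higher were 2 (3.2% of the 19467) and at least 2-fold lower was 1 (2.02%), the Kitl probe set described before. With 50 added to every signal, the dim probe sets of Foxl2 and Gata4 gave log2 ratios of 0.44 and 0.61, against 0.73 and 1.03 for the measured ones. The same step left that Kitl probe set at -0.72, still the lowest of its gene.

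Other genes of granulosa identity went both ways. Of 15 measured factors and products, 2 passed 2-fold upwards and 1 downwards, and their median log2 ratio was 0.15. Nr5a1, the steroidogenic factor SF-1, read 393 and 536, and its relative Nr5a2 read 3130 and 3253 on its brightest probe set. The 3 measured Nr5a2 probe sets ran from -0.22 to 0.35 on the log2 scale. Esr2, the estrogen receptor of granulosa cells, had a log2 ratio of 1.19, and Nr0b1, a nuclear receptor that represses SF-1, one of 1.04, both at signals under 100, and Nr0b1 stayed short of 2-fold under the other scalings. Runx1, a transcription factor of fetal granulosa cells that is also known to be induced at ovulation, read 1154 with vehicle and 438 with ulipristal, 2.64-fold lower. Its 6 measured probe sets were all below 0, between -1.73 and -0.11 on the log2 scale.

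Genes known to rise with FSH also went both ways. Of 16 measured, Inhba, Inhbb, Npr2 and Esr2 (4) passed 2-fold upwards and 0 downwards. The Esr2 value is the dim one given before, which counts again in each list that holds it. The median was 0.15, and 7 genes lay below 0. It was 0.09 with median centring, 0.30 after quantile normalization and 0.29 with lowess centring. Inhba and Inhbb, whose products form activins and inhibins, had log2 ratios of 1.39 and 1.44. Their partner Inha read 6933 and 8212, 1.18-fold higher. Ccnd2, the cyclin of granulosa cell division, read 1885 and 1407, and its 6 measured probe sets spanned log2 ratios of -0.57 to 0.19. Cyp19a1 and Lhcgr had no probe set naming 1 gene and were not analysed here.

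The signal chain inside the cell, from the G protein to kinases and FOXO factors, had 0 of 23 measured genes past 2-fold in either direction and a median of 0.02, which turned to -0.04 and -0.02 with median and lowess centring. Pde4d, a phosphodiesterase that breaks down cyclic AMP, read 377 and 190, just short of 2-fold lower with a log2 ratio of -0.99, and passed it under the other scalings. It was chosen after its values were seen. Gnas, the stimulatory G protein subunit, read 5121 and 6137 on its brightest probe set. The 2 measured Gnas probe sets did not agree in direction, with log2 ratios of -0.38 and 0.26. The adenylyl cyclases Adcy3, Adcy7 and Adcy9 had log2 ratios of 0.06, -0.38 and 0.23 on their brightest probe sets. Their measured probe sets did not agree in direction for Adcy3, from -0.91 to 0.22, or for Adcy7, from -0.38 to 0.21.

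Other GATA factors and partners of the family stayed within 2-fold (6 of 6 measured), and their median was -0.01. The cofactor Zfpm2, known as FOG2, read 269 and 349, Zfpm1 read 69.7 and 76.1, Gata2 read 160 and 149, and Lmo2 read 176 and 142. The 2 measured Gata2 probe sets did not agree in direction, with log2 ratios of -0.10 and 0.34. Gata1, Gata3 and Gata5 were too dim to count as measured. Proteins that bind WT1, and genes known to respond to it, stayed within 2-fold too (9 of 9), and their median was 0.0019, turning to between -0.06 and -0.0043 under the other scalings. Wtap read 1110 and 1112, and Pawr, which binds WT1, read 1307 and 1024.

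Of genes that act with FOXL2, or that it keeps low, 1 of 12 measured passed 2-fold upwards, the dim Esr2, and 0 downwards. Their median was 0.21. Esr1, the estrogen receptor of theca and stroma, read 502 and 818. Smad3, which FOXL2 joins at the follistatin gene, read 464 and 486, and Smad4 read 1453 and 1216. Of the testis-side genes in this list, Sox9 read 32.3 and 33.4, near the filter, and Gatm read 161 and 144. Cyp26b1, which breaks down retinoic acid, read 49.8 and 75.5, and Ptgds, a prostaglandin D synthase, read 314 and 403, 1.51-fold and 1.28-fold higher. All 4 were picked for naming once their values had been seen, and Sox8, Dmrt1 and Fgf9 were too dim to count as measured.

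Around KIT ligand, 1 of the 13 other measured genes passed 2-fold upwards and 1 downwards. Kit, the receptor, read 113 and 230, a log2 ratio of 1.02 that did not reach 2-fold under the other scalings, while its ligand was below 0 on every probe set. Spred1, which restrains signalling from KIT to ERK, read 599 and 275 on its brightest probe set, a 2.18-fold lower signal. The 6 measured Spred1 probe sets ranged from -1.25 to 0.34 and did not agree in direction. The adaptor Grb2 and the exchange factor Sos1 had log2 ratios of 0.15 and -0.06 on their brightest probe sets. The 2 measured Sos1 probe sets did not agree in direction, with -0.06 and 0.77.

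Around GRB14, 0 of 10 measured genes of insulin signalling passed 2-fold, and their median was 0.38. Insr, the insulin receptor, read 786 and 602, Igf1r read 897 and 1170, and Irs1, a substrate of both receptors, read 564 and 1033, 1.83-fold higher. The 4 measured Igf1r probe sets did not agree in direction, with log2 ratios from -0.24 to 0.63. The related adaptor Grb10 read 1410 and 1224, and Grb7 was too dim to count as measured. Among estrogen receptors, coregulators and responsive genes, the dim Esr2 and Pgr (2 of 11) passed 2-fold upwards and 0 downwards. The median was 0.27. Pgr, the receptor that ulipristal binds, had 1 measured probe set, with a log2 ratio of 2.83. It read 49.2 with vehicle, a dim level, and 351 with ulipristal. The coactivator Ncoa1 had a log2 ratio of 0.28, against 0.23 for Greb1.

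**Figure D3:**
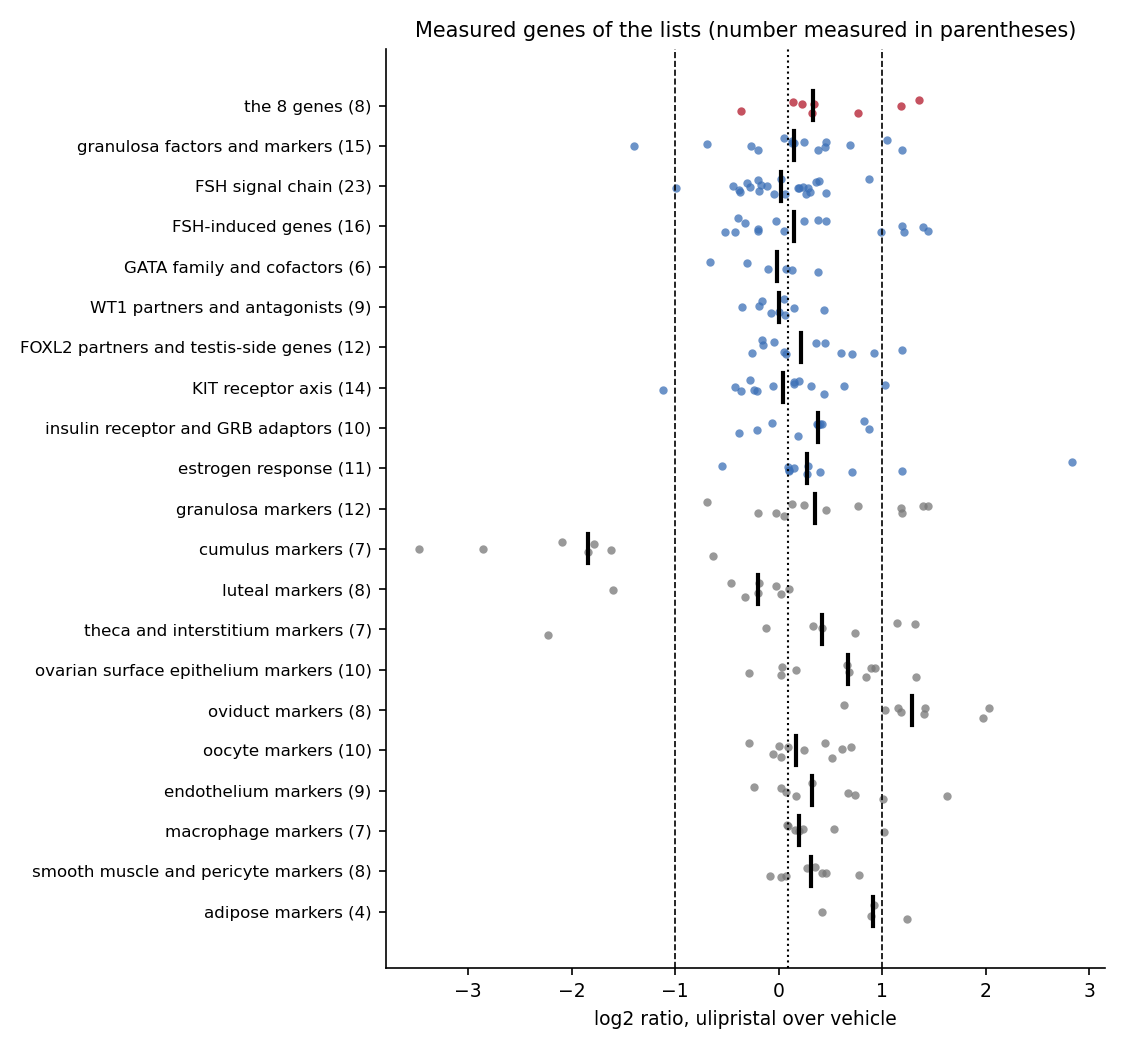
Log2 ratio of ulipristal over vehicle for the measured genes of each list, with a black bar at the list's median, a dotted line at 0.09 for all measured genes and dashed lines at 2-fold. The 8 genes (red) have a median of 0.33, cumulus markers lie far to the left at -1.84 and oviduct markers to the right at 1.29. Lists share genes, and vertical scatter within a row carries no value.

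Markers of the cells that a whole ovary holds were compared beside these values. Granulosa markers, which include Fshr and Foxl2, had 4 of 12 at least 2-fold higher and 0 lower. Fshr and the dim Esr2 were among those 4. Without Fshr and Foxl2 the median was 0.19. The summed signal of all 12, Fshr and Foxl2 included, was 22963 with vehicle and 27055 with ulipristal. The genes listed as cumulus markers, all 7 below 0, had 6 at least 2-fold lower and a sum of 11888 against 2300. Vcan read 5886.5 and 1376, and Ereg read 3881 and 534, so a few genes carried this sum. It is no count of cumulus cells. Luteal markers had 1 of 8 at least 2-fold lower, Akr1c18, and sums of 47332 and 44724.

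Surface epithelium markers, of cells that also express Wt1, Gata4 and Gata6, were above 0 for 9 of 10, with a median of 0.67 and sums of 1537 and 2277. Oviduct markers were at least 2-fold higher for 7 of 8, with sums of 3924 and 6440. These 7 were dim with vehicle, from 19.1 to 57.5. The sums came mostly from Ovgp1, which read 3641 and 5642 and did not pass 2-fold. Theca markers had 2 of 7 at least 2-fold higher and 1 lower, and sums of 4563 and 6075. Endothelial markers had 2 of 9 at least 2-fold higher and sums of 1821 and 2218. Under the other scalings these counts were 6 of 8 for oviduct and 1 of 9 for endothelial markers. The medians were 0.17 for oocyte, 0.20 for macrophage, 0.31 for smooth muscle and 0.91 for adipose markers, the last over 4 measured genes. No marker with a probe set naming 1 gene was at 0 on either array, which does not show that each was detected. Lep, for example, read 5.48 and 2.00, under the floor. The part of these cell types in the values of the 8 genes was not tested.

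**Figure D4:**
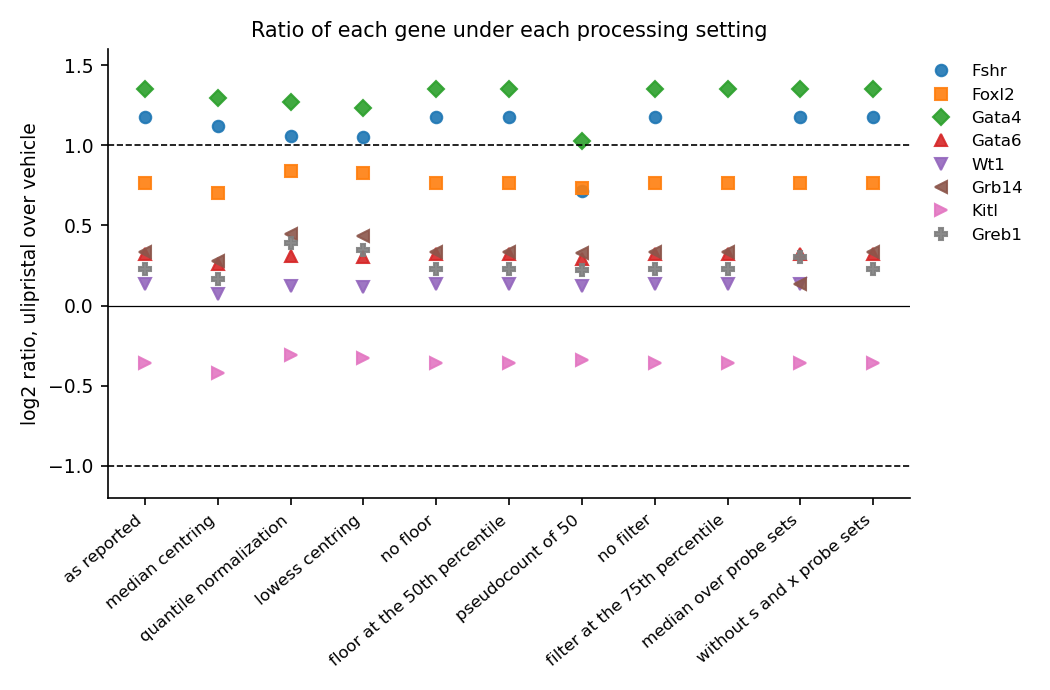
Log2 ratio of ulipristal over vehicle of each of the 8 genes as reported and under 10 other settings, with dashed lines at 2-fold. Gata4 stays above the upper line, Fshr drops to 0.71 with a pseudocount of 50, and Kitl stays below 0 throughout. Fshr has no point with the filter at the 75th percentile, and Wt1 none without s and x probe sets.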

How the data were processed

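Total RNA from whole ovaries was cleaned on columns, and 100 ng was labelled with biotin for the arrays, per the labels' protocols. The authors deposited 1 linear intensity per probe set and array. Version 1 of Affymetrix Expression Console and MAS5 appear in the submitters' processing notes, without their roles. Global scaling hides a shift shared by most genes. For arrays, their number limits the precision. No build is named for the upstream steps.

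Signals under the 25th percentile of both arrays, 7.17, were set to it, and log2 was taken. Genes were called at 2-fold in place of a test. The genes, lists and thresholds were chosen with earlier results of these data known. From each list the text names the first 4 measured genes in list order and those past 2-fold, or some of them, and states the exceptions. No gene was named for a like pattern, since 2 arrays give 1 ratio. All 8 gene identifiers were found in the RefSeq table (GRCm38.p6, names only). The steps were tested on simulated arrays with known changes larger than 2-fold and equal noise at all signal levels. On the real arrays, dim signals spread more widely, so that run does not bear on ratios near 2-fold. Alternatives varied the scaling, floor, filter, probe sets and fold threshold. Scripts ran under Python 3.11.15 with pandas 2.3.3, numpy 2.4.6, matplotlib 3.10.9 and statsmodels 0.14.6.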

Additional observations from a re-analysis of the deposited data

How the results depend on the processing

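The 12 alternatives changed the scaling (quantile normalization, median centring, lowess centring with a fraction of 0.3), the floor (none, at the 50th percentile, or replaced by a pseudocount of 50), the filter (none, or at the 75th percentile), the probe sets (their median per gene, or without s and x probe sets) and the fold threshold (1.5 or 3). Of the 8 genes, 2 were at least 2-fold higher as reported. This was 1 with the pseudocount, where Fshr had a log2 ratio of 0.71, and 1 with the filter at the 75th percentile, under which Fshr was no longer measured. At 3-fold it was 0. The count of genes past the threshold in the lower direction was 0 under all 12. The median of the 8 genes ran from 0.27 to 0.42. Each gene with a value kept its direction in every setting. For a given probe set, the floor, pseudocount and filter settings could not turn a direction. Only the scalings and the choice of probe sets could. Gata4 ranged from 1.03 to 1.35, Foxl2 from 0.71 to 0.84 and Kitl from -0.42 to -0.31. Grb14 ranged from 0.14, with the median over probe sets, to 0.45, and Greb1 from 0.17 to 0.39. Wt1 came closest to 0, at 0.08 with median centring, and has no value without s and x probe sets. Over all measured genes, the pseudocount moved the counts from 380 higher and 177 lower to 54 and 98, and the filter at the 75th percentile to 58 and 101. No filter gave 1025 and 460, the 1.5-fold threshold 1402 and 520, and the 3-fold threshold 60 and 57. Of the genes past 2-fold that were higher or lower, the share that was higher turned to a minority with the pseudocount and with the filter at the 75th percentile. No paired analysis was possible because each treatment had 1 array. Dim signals limit Fshr and the probe sets of Foxl2, Gata4 and Kitl that were not measured.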
